A study of Mus musculus with 18 samples.

Results

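These oligos are the 712 8-base sequences (8-mers) that place GCAA, the C/EBP half-site, on the unmodified strand of the array DNA after A, G or T, and do not hold it on the modified strand. They were drawn by sequence alone from the 65530 8-mers of the authors' table of z-scores. The reverse complement had to hold GCAA directly after one of these bases, which matched 768 8-mers. Of those, 48 were left out because the 8-mer as written also held GCAA, and 8 because they carried 7 consecutive bases of the composite site that joins TGA, T and GCAA. Of the 712, 711 lay on at least 1 probe and were tested, and 1 lay on no probe.

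The study measured binding of 3 mouse bZIP proteins, CREB1, ATF1 and JUND, to double-stranded DNA on protein binding microarrays, where a bound tagged protein is read as fluorescence. Per the labels' protocols, each protein was a DNA-binding domain with its flanking residues, fused to glutathione S-transferase and expressed in a cell-free system, so neither full-length protein nor a cell was involved. For each protein, 2 arrays were made double-stranded with cytosine, 2 with 5-methylcytosine (5mC) and 2 with 5-hydroxymethylcytosine (5hmC), 18 arrays in 9 groups. Primer extension put the modified base at every cytosine of the synthesized strand and left the printed strand unmodified in all modified groups, so fully methylated DNA was not measured. Per its title, the study asked about an increase of CREB1 binding at GCAA by 5mC and 5hmC. The oligos described here address the orientation in which the cytosine of GCAA itself stayed unmodified.

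bZIP proteins bind DNA as dimers, each basic region reading one side of a short, often palindromic site. CREB1 and ATF1 are close relatives best known for the cAMP response element (CRE), a palindrome of TGAC and GTCA, through which cAMP signalling activates transcription. JUND belongs to the AP-1 family, whose preferred site is a shortened form of the CRE palindrome. C/EBP proteins, another bZIP family, bind palindromes built of GCAA and its complement TTGC. Methylation adds a methyl group at the 5 position of cytosine, in the major groove that the basic region reads, and hydroxymethylation adds a hydroxyl to that group.

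Each 8-mer is written as it reads on the synthesized, modified strand, and its reverse complement as it reads on the printed strand. An 8-mer here therefore carries TTGC followed by a, c or t on the modified strand, with its cytosine modified, opposite an unmodified GCAA. The reverse complement is itself another 8-mer of the table: on the probes that hold it as written, the same duplex is turned round, and the cytosine of GCAA is the modified one. The pairs below are those whose z-scores rose most for CREB1 with 5mC. Capitals mark TTGC and GCAA.
modified strand aTTGCccc, printed strand: gggGCAAt
modified strand cacTTGCa, printed strand: tGCAAgtg
modified strand gatTTGCa, printed strand: tGCAAatc
modified strand acaTTGCc, printed strand: gGCAAtgt
modified strand gacTTGCa, printed strand: tGCAAgtc
The next pairs were called lower for CREB1 with 5mC or 5hmC. Among them acgTTGCc and TTGCcgta were chosen for their falls in ATF1, and the rest were among the largest falls for CREB1. All but TTGCttac carry a CpG, and the first 3 carry ACGT, the centre of the CRE.
modified strand acgTTGCt, printed strand: aGCAAcgt
modified strand acgTTGCa, printed strand: tGCAAcgt
modified strand acgTTGCc, printed strand: gGCAAcgt
modified strand cTTGCcgt, printed strand: acgGCAAg
modified strand TTGCcgta, printed strand: tacgGCAA
modified strand cgtTTGCc, printed strand: gGCAAacg
modified strand TTGCtacg, printed strand: cgtaGCAA
modified strand TTGCttac, printed strand: gtaaGCAA
The last set shows pairs whose orientations responded most unequally, with the gain on the orientation that places GCAA on the modified strand.
modified strand TTGCataa, printed strand: ttatGCAA
modified strand TTGCatag, printed strand: ctatGCAA
modified strand aTTGCata, printed strand: tatGCAAt
modified strand gTTGCata, printed strand: tatGCAAc
modified strand ttaTTGCa, printed strand: tGCAAtaa
modified strand gtgTTGCa, printed strand: tGCAAcac
modified strand gcaTTGCa, printed strand: tGCAAtgc

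The table holds 1 z-score per 8-mer and array, a score with a median near 0 on each array. Nothing states that the 2 arrays of a group used independent protein batches. All p-values therefore reflect variation between these arrays alone, and that variation may be technical. The 8-mers overlap and share probes and are not independent: the 711 lay on 3436 distinct probes, with a median of 17 probes each (1 to 25), and 443 of these probes also held a reverse complement elsewhere. Over the 711, replicate arrays correlated with Pearson's r from 0.386 for JUND 5hmC to 0.832 for ATF1 5mC, so the JUND 5hmC values are the least repeatable. On each array at most 6 of the 3436 probes were at the scanner's ceiling.

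Without modification the oligos were weakly bound by every protein. On the CREB1 cytosine arrays their median z-scores were -0.330 and -0.192, slightly under those of all 65121 tested 8-mers (0.00847 and 0.00793). A z-score of at least 4 was reached by 4 and 8 of the 711 on these arrays, 0.563% and 1.13%, against 4.25% and 5.99% of all tested 8-mers. The highest were acgTTGCt (7.97 and 10.7), TTGCtacg (5.12 and 9.61) and TTGCttac (5.17 and 8.57). On the ATF1 cytosine arrays the medians were -0.281 and -0.194, and the highest mean belonged to TTGCtacg at 4.36 and 4.78. On the JUND cytosine arrays the medians were -0.279 and -0.438, and the highest mean belonged to TTGCccct (7.33 and 5.51), which rests on 2 probes. All 3 leading CREB1 oligos lost z-score with 5hmC, as described below.

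With 5mC, CREB1 scored higher on 38 of the 711 oligos and lower on 7 (limma, Benjamini-Hochberg adjusted p under 0.05 over all tested 8-mers). Among all tested 8-mers, 2.25% rose and 6.21% fell, so the share that rose here, 5.34%, was above that background and the share that fell, 0.985%, below it. The median change was 0.358 z-score units against -0.0631 over all tested 8-mers, and 480 of the 711 changes were above 0. The reverse complements of the same oligos, with GCAA on the modified strand, had a median change of 2.20, and 287 of them rose. Of the 38 oligos that rose, 21 had a reverse complement that also rose. The count rested on all 4 arrays to different degrees: without cytosine replicate 1 it was 12 higher and 9 lower, and without cytosine replicate 2 it was 15 higher and 5 lower.

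Among the oligos that rose with 5mC, cacTTGCa had CREB1 z-scores of -0.409 and -0.443 on cytosine, 4.09 and 3.70 on 5mC and 1.31 and 1.05 on 5hmC arrays. Its 5mC arrays lay above all others, and the change from cytosine was 4.32 (SE 0.695, adjusted p = 0.00022) by limma. For gatTTGCa the z-scores were -0.443 and 0.437, then 4.18 and 3.64 and 2.61 and 1.55, a change with 5mC of 3.91 (SE 0.830, adjusted p = 0.00331). Both carry TTGCa at their 3′ end, as does gacTTGCa, which went from 0.626 and 0.542 to 5.14 and 3.49 with 5mC and stood at 1.56 and 1.19 with 5hmC. Its change with 5mC was 3.73 (SE 0.736, adjusted p = 0.00172). The reverse complements of these 3 had smaller mean changes: with 5mC they scored 4.28 and 0.936 for tGCAAgtg, 3.40 and 1.00 for tGCAAatc and 3.29 and 0.665 for tGCAAgtc. The test of each of these differences between the strands gave limma adjusted p = 0.458, 0.447 and 0.0948. The oligo acaTTGCc differed from them in having cytosine after TTGC; its z-scores were 0.758 and 2.91 on cytosine and 5.14 and 6.34 on 5mC arrays, a change of 3.91 (SE 0.897, adjusted p = 0.00644). This call was lost without cytosine replicate 1 (adjusted p = 0.124) and without 5mC replicate 2 (adjusted p = 0.0765).

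The largest rise, aTTGCccc, came from 1 probe. Its CREB1 z-scores were 2.86 and 0.834 on cytosine, 20.5 and 12.8 on 5mC and 0.204 and 1.77 on 5hmC arrays, a change with 5mC of 14.8 (SE 2.76, adjusted p = 0.000981). The synthesized strand of that probe also carries GCAA, after C, at positions 14 to 17 of the variable part, beyond the oligo at positions 4 to 11. The probe is shown with the oligo in capitals.
synthesized strand of the only probe: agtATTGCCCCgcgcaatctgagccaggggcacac
Its signal was 1.28 and 1.12 times the array median on the cytosine arrays, 4.58 and 3.73 times on the 5mC arrays and 0.866 and 1.08 times on the 5hmC arrays. The part of each of the 2 sequences in this rise was not tested. Its reverse complement gggGCAAt, carried by 33 probes, scored 0.784 and 0.833 with 5mC.

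The 7 oligos that fell with 5mC were led by sequences with part of a CRE. The oligo acgTTGCt had z-scores of 7.97 and 10.7 on cytosine, 1.39 and 0.740 on 5mC and 0.975 and 2.37 on 5hmC arrays. Both modified groups lay below the cytosine arrays and overlapped each other, with changes of -8.25 (SE 0.845, adjusted p = 1.1e-06) for 5mC and -7.64 (SE 0.845, adjusted p = 2.81e-06) for 5hmC. The oligo acgTTGCa went from 5.72 and 6.72 to 0.942 and 1.15 with 5mC and 1.30 and 1.98 with 5hmC, so it lay lower with either modified base. Its reverse complement tGCAAcgt read 3.47 and 5.29 on cytosine and 14.0 and 5.65 on 5mC arrays. That higher mean came mainly from 5mC replicate 1, and the change did not pass the test. The oligo cTTGCcgt holds CpG without ACGT and went from 3.44 and 4.73 to -0.187 and -0.435 with 5mC, a change of -4.40 (SE 0.636, adjusted p = 6.78e-05). The oligo TTGCttac, with no CpG, went from 5.17 and 8.57 to 2.28 and 1.92, a change of -4.77 (SE 0.934, adjusted p = 0.0016). That call was lost with quantile normalization (limma adjusted p = 0.369) and on log2 signal after normexp (0.0646). With 5hmC its change was -4.21 (limma adjusted p = 0.00534). The 5hmC call was lost in 3 of 9 other settings, and without cytosine replicate 2 or 5hmC replicate 1. Of the 115 oligos with a CpG, 2 rose and 5 fell with 5mC, whereas of the 596 without one, 36 rose and 2 fell. Over all tested 8-mers, 2.61% of those with a CpG rose and 12.0% fell, and 2.02% of those without rose and 2.63% fell. Falls were thus a smaller share of these oligos than of all tested 8-mers in both classes, and the differences were not tested. Of the 5 oligos holding ACGT or TGAC, 3 fell.

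Counts differed by the base before GCAA on the unmodified strand. With 5mC, CREB1 rose on 25 of the 200 oligos with T before GCAA (12.5%), 9 of the 255 with G (3.53%) and 4 of the 256 with A (1.56%). The median changes were 0.961, 0.389 and -0.0774, and the median z-scores on the 5mC arrays were 1.21 and 0.670 after T, -0.0828 and -0.161 after G and -0.0704 and -0.296 after A. The reverse complements rose in 161 of 200, 50 of 255 and 76 of 256 cases, so T before GCAA had the largest share in either orientation. Differences between the classes were not tested. An oligo that ends in TTGCA can be followed on a probe by A, which makes a GCAA on the modified strand just outside the 8 bases. The 64 oligos of that kind lay on 1081 probes, of which 265 read TTGCAA and 320 held GCAA anywhere on the modified strand, and 13 of the 64 rose. Of the 136 in which TTGCA was followed by C, G or T within the oligo, on 875 probes of which 7 read TTGCAA and 70 held GCAA anywhere on the modified strand, 12 rose (8.82%).

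Probes that held GCAA on the modified strand were then removed and the scores recomputed from the linear signal. Before removal the recomputed scores gave 42 higher and 7 lower among 711 oligos with 5mC. After removal they gave 30 higher and 8 lower among 710, with a median change of 0.353, while the calls over all tested 8-mers went from 5769 to 4134. The change of cacTTGCa remained called in CREB1 after removal, as did those of gatTTGCa and gacTTGCa. In ATF1 the rise of cacTTGCa with 5mC (adjusted p = 0.334) and that of attTTGCt with 5hmC (0.285), both described below, were no longer called. This comparison was chosen after seeing the data.

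With 5hmC, CREB1 scored higher on 14 oligos and lower on 10 by the same test, against a background of 1.12% higher and 6.78% lower. The median change was 0.351 against -0.0616 over all tested 8-mers, and the reverse complements rose in 172 of 711 cases with a median change of 1.49. Of the oligos with T before GCAA 6 of 200 rose, of those with G 6 of 255 and of those with A 2 of 256. The 14 rises were small: the largest belonged to tTTGCcat, from -0.227 and 0.781 to 3.07 and 3.24 with 5hmC, a change of 2.88 (SE 0.847, adjusted p = 0.0396). It had scored 4.67 and 1.55 with 5mC, where it also rose. The oligo atgTTGCa went from -0.0263 and -0.114 to 2.72 and 2.34, and TTGCatta from -0.198 and -0.260 to 2.42 and 2.02. The 5hmC arrays lay above the cytosine arrays for each of the 3, with limma adjusted p = 0.0235 for the second and 0.0221 for the third. None of the 3 calls held without any one of the 4 arrays, where the highest adjusted p was 0.256, 0.174 and 0.174, and the first was lost in 5 and the second in 4 of 9 other settings. The oligo tgTTGCat had an uneven pair, 4.83 and 2.28 after 1.02 and 0.815 (adjusted p = 0.041), and without 5hmC replicate 1 its adjusted p was 0.559.

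Of the 10 oligos that fell with 5hmC, 8 carry a CpG, 6.96% of the 115 with one, against 13.9% of all tested 8-mers with a CpG. The oligo TTGCtacg went from 5.12 and 9.61 to 2.09 and 1.60, a change of -5.52 (SE 1.28, adjusted p = 0.00752), while its 5mC arrays read 6.59 and 3.81 and overlapped those with cytosine. That call was lost without cytosine replicate 2 (adjusted p = 0.177), without 5hmC replicate 2 (0.0653) and in 6 of 9 other settings, with adjusted p = 0.996 on log2 signal. The oligo TTGCcgta went from 3.81 and 1.62 to -0.761 and -0.741 (adjusted p = 0.00314), and cTTGCcgt to -0.585 and 0.580 (adjusted p = 0.000163). None of the 115 oligos with a CpG is among the 14 that rose, and 0.298% of all tested 8-mers with a CpG rose. The count with 5hmC depended on single arrays: it was 2 higher and 9 lower without cytosine replicate 1, 2 higher and 5 lower without cytosine replicate 2, and 1 higher and 7 lower without 5hmC replicate 1. Fitting only the 6 CREB1 arrays left 6 higher and 7 lower. Set directly against 5mC, 5hmC changed 2 oligos, against 0.952% of all tested 8-mers. The oligo aTTGCccc was lower (change -15.7 (SE 2.76, adjusted p = 0.00593)), and gttTTGCt was higher (change 2.03 (SE 0.482, adjusted p = 0.0475)). Without 5mC replicate 2 it changed 4, without 5hmC replicate 1 it changed 0 and without 5hmC replicate 2 it changed 1. The comparisons of 5mC and 5hmC with cytosine share the cytosine arrays.

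The orientation of the duplex was tested directly, as the z-score of each oligo minus that of its reverse complement on the same array. On unmodified DNA few pairs differed by orientation for CREB1: 37 of the 711 pairs differed, 10 with the oligo higher and 27 with it lower, when 10.9% of all 32225 pairs differed in either direction. Without cytosine replicate 1 the count was 12 and without replicate 2 it was 5. With 5mC the difference changed in 157 pairs, against 4.43% of all pairs, and in 156 of them the oligo gained less than its reverse complement. The median change of the difference was -1.88. With 5hmC it changed in 86 pairs, against 3.57% of all pairs, each time with the oligo gaining less, and the median change was -1.29. These counts were 56 to 218 with 5mC and 38 to 91 with 5hmC when single arrays were left out. The lowest for 5mC came without 5mC replicate 1, and those without cytosine replicates 1 and 2 were 87 and 64. For 5hmC they were 53 and 38 without cytosine replicates 1 and 2, and 49 without 5hmC replicate 1.

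The pair of TTGCataa and ttatGCAA showed the widest gap. On cytosine arrays TTGCataa scored 2.03 and 0.551 and ttatGCAA 1.68 and 3.14. With 5mC the oligo stayed at 3.88 and 0.867 whereas its reverse complement reached 37.2 and 23.7. With 5hmC they stood at 3.01 and 1.11 and 24.6 and 59.9. The change of the difference was -27.0 with 5mC (adjusted p = 0.0178) and -39.1 with 5hmC (adjusted p = 0.00104), both by limma, and the first was lost without either cytosine array or 5mC replicate 1. The oligo TTGCatag was flat, with -0.587 and 0.200 on cytosine and 0.383 and 0.387 on 5mC arrays, while ctatGCAA went from 0.545 and 0.205 to 29.7 and 12.3. That change of -20.1 (adjusted p = 0.000305) kept its call without any single array. The oligo aTTGCata scored 3.28 and 2.50 on cytosine, 2.59 and 1.48 on 5mC and 2.41 and 1.68 on 5hmC arrays. Its reverse complement tatGCAAt went from -0.415 and -0.431 to 24.4 and 12.7 and 16.7 and 27.3, and both changes of the difference were called with every array left out in turn. The oligo gTTGCata read 2.05 and 0.431 with 5hmC against 14.8 and 39.2 for tatGCAAc (change of the difference -25.6, adjusted p = 0.00297). In all 4 pairs GCAA follows T. The 1 pair that changed the other way with 5mC was that of aTTGCccc.

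The strand counts also differed by the base before GCAA, a difference that was not tested. With 5mC the difference fell in 99 of the 200 pairs with T there, 16 of the 255 with G and 41 of the 256 with A, with median changes of -3.69, -0.856 and -2.13. With 5hmC it fell in 63, 8 and 15 pairs. The oligos after A thus showed a median change near 0 themselves while their reverse complements gained 2.19.

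Probe signals showed the same order on the intensity scale, among probes without ACGT, TGAC or GTCA and without GCAA after C. The 2095 probes with GCAA after A, G or T on the printed, unmodified strand alone had CREB1 log2 signals above the median of probes with GCAA on neither strand by -0.07 and -0.04 on cytosine, 0.09 and 0.02 on 5mC and 0.05 and 0.02 on 5hmC arrays. The 2157 probes with it on the synthesized strand alone stood at 0.03 and 0.01, 0.63 and 0.39 and 0.28 and 0.16. The 347 probes with GCAA on both strands stood at 0.99 and 0.58 with 5mC and 0.53 and 0.32 with 5hmC. Probes with the unmodified GCAA after T were the highest of their kind, 0.23 and 0.15 with 5mC, against 0.04 and -0.00 after G and 0.02 and -0.05 after A. The modified GCAA after T gave 1.00 and 0.84. These are differences of medians over probes, given per array and with no test.

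The 8 oligos whose unmodified strand reads TGA, TTA or TTG, then A, G or T, then GCAA, which lie close to bZIP sites, did not pass the test for CREB1 with either base. Their limma adjusted p-values ranged from 0.372 to 0.992 for 5mC and from 0.171 to 0.982 for 5hmC. TTGCacaa, whose printed strand reads ttgtGCAA, scored 0.708 and -0.0674 on cytosine, 1.17 and 2.10 on 5mC and 2.63 and 1.60 on 5hmC arrays. Its reverse complement went from -0.0959 and -0.0958 to 9.44 and 1.99 and 8.60 and 4.99. TTGCctca, opposite tgagGCAA, stayed between -0.201 and 0.249 on all 6 CREB1 arrays, and TTGCttca, opposite tgaaGCAA, between -1.14 and -0.288. The remaining 5 lay under 4 on all 6 arrays.

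ATF1 had fewer calls. With 5mC it scored higher on 7 oligos and lower on 4, against a background of 1.19% higher and 2.06% lower. The median change was 0.0581, against -0.025 over all tested 8-mers, while the reverse complements had a median change of 1.25 and rose in 72 cases. Of the 7, 5 had T before GCAA. The oligo caTTGCag rose most, from -0.785 and -1.35 on cytosine to 2.48 and 2.31 on 5mC arrays, and read 0.0491 and -0.519 with 5hmC. The change with 5mC was 3.46 (SE 0.613, adjusted p = 0.00546) by limma. Its reverse complement ctGCAAtg went from -0.731 and -1.01 to 4.10 and 4.21. The oligo cacTTGCa went from -0.314 and -0.322 to 2.12 and 3.30 (adjusted p = 0.0219), and gatTTGCa from 0.0434 and 0.580 to 3.07 and 3.69 (adjusted p = 0.0478). The oligo aTTGCagt and aTTGCtgc rose by 2.97 and 2.42. Without ATF1 cytosine replicate 1, 1 oligo was called, and without cytosine replicate 2 or either 5mC array there were 0 calls. At an unadjusted p under 0.05, 64 were higher and 34 lower in the full fit, a cut at which all tested 8-mers were not counted.

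Of the 4 oligos lower for ATF1 with 5mC, 2 were also lower for CREB1, and both carry a CpG. The oligo cTTGCcgt went from 1.14 and 2.25 to -1.21 and -1.28 with 5mC and -0.457 and -1.18 with 5hmC, changes of -2.95 (SE 0.636, adjusted p = 0.0153) and -2.52 (SE 0.636, adjusted p = 0.0413). The oligo acgTTGCc went from 2.11 and 2.49 to -0.301 and -0.0579 and -0.389 and 0.215. With 5hmC, ATF1 changed 5 oligos, 1 higher and 4 lower, against 0.0998% and 2.08% of all tested 8-mers. On log2 signal after normexp the split was 5 higher and 1 lower. The rise was that of attTTGCt, from -0.845 and -0.116 to 1.88 and 1.99 (change 2.41 (SE 0.453, adjusted p = 0.00777)), and TTGCcgta fell most, from 2.08 and 2.85 to -2.23 and 0.193. At most 1 of these calls was left without any one of the 4 arrays. Between the 2 modified bases 5 oligos differed, against 0.725% of all tested 8-mers, and at most 2 did so without any one array (1 without 5mC replicate 1, 0 without 5mC replicate 2, 2 without 5hmC replicate 1 and 0 without 5hmC replicate 2).

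For ATF1 the strand test gave the same direction as for CREB1. On unmodified DNA 20 pairs differed, against 6.23% of all pairs, and 0 without either cytosine array. With 5mC the difference changed in 32 pairs, against 1.46% of all pairs, each time with the oligo gaining less, and the median change was -1.18. Fits of each protein's own arrays called 121 pairs for ATF1 and 115 for CREB1 with 5mC, among 1675 and 1001 of all pairs. Quantile normalization gave 68 and 67, among 715 and 454. The oligo ttaTTGCa scored 0.790 and 1.18 with 5mC against 10.7 and 10.4 for tGCAAtaa, after 0.00743 and -0.0990 and -0.382 and 0.780 on cytosine. The oligo gtgTTGCa scored 0.978 and 1.43 against 9.15 and 8.95 for tGCAAcac, and gcaTTGCa 0.604 and -0.470 against 8.64 and 6.99 for tGCAAtgc. The changes of the difference were -9.28, -8.35 and -7.97 (adjusted p = 0.0417, 0.00687 and 0.0339). Leaving out any one of the 4 arrays ended all 32 calls. With 5hmC limma called 0 pairs, against 0.0403% of all pairs. At an unadjusted p under 0.05 it called 61, 56 of them with the oligo gaining less, and all pairs were not counted at that cut. A fit of the ATF1 arrays alone called 15 of the 711 pairs, all with the oligo gaining less, and 274 of all 32225 pairs.

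CREB1 and ATF1 shared part of their calls. Of the oligos higher with 5mC, 6 were called in both, 15.8% of the 38 for CREB1 and 85.7% of the 7 for ATF1. In ATF1, 36 of the 38 changed upward, as did 372 of the 711 oligos and 48.6% of all tested 8-mers. That share was not computed for all 8-mers called higher in CREB1. Of those lower with 5mC, 2 were called in both, of 7 for CREB1 and 4 for ATF1. Of those lower with 5hmC, 3 were called in both, 30.0% of the 10 and 75.0% of the 4, and of those higher with 5hmC, 0 of the 14 and the 1. Over all tested 8-mers, the calls in both proteins were 23.3% of the CREB1 and 43.8% of the ATF1 calls for those higher with 5mC, 26.8% and 80.8% for those lower with 5mC, 0.412% and 4.62% for those higher with 5hmC, and 26.5% and 86.4% for those lower with 5hmC. The test of the difference between the 2 proteins in their response to 5mC called 0 oligos (limma, against 0.272% of all tested 8-mers). At an unadjusted p under 0.05 it called 21, a cut at which all tested 8-mers were not counted. Without CREB1 cytosine replicate 1 it called 3, without CREB1 5mC replicate 2 it called 1, and moderation without a trend called 2. For 5hmC it called 1, against 0.215%: acgTTGCt, which fell further in CREB1 than in ATF1, where it went from 2.06 and 2.36 to 0.694 and 1.01. The difference was -6.29 (SE 1.20, adjusted p = 0.0271), and it was no longer called without either CREB1 5hmC array, either ATF1 cytosine array or either ATF1 5hmC array.

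JUND, which stands apart as an AP-1 protein, changed few of the oligos. With 5mC 4 were higher and 1 lower, against 0.799% and 0.244% of all tested 8-mers, with a median change of -0.0212. The split was 1 higher and 4 lower on recomputed linear signal, 6 and 8 on log2 signal, 2 and 3 with normexp added and 0 and 3 without cytosine replicate 2. The oligo ccaTTGCa went from -1.50 and -1.70 to 1.46 and 0.532 (change 2.60 (SE 0.616, adjusted p = 0.0465)), and cgTTGCcg from -0.185 and -1.49 to 2.57 and 0.950 (change 2.60 (SE 0.628, adjusted p = 0.0498)). The other 2 were TTGCacta (change 2.27) and ctTTGCca (change 2.08). The fall was that of TTGCccct, from 7.33 and 5.51 to -2.14 and -2.91, with 8.69 and 4.78 on 5hmC arrays (change -8.95 (SE 1.06, adjusted p = 0.00169)). On its 2 probes the signal was 1.30 and 1.81 and 1.81 and 1.34 times the array median with cytosine, and 0.517 and 0.750 and 0.757 and 0.394 times with 5mC. The JUND count ranged from 1 to 3 without single arrays: 1 without cytosine replicate 1 or 5mC replicate 2, 2 without 5mC replicate 1 and 3 without cytosine replicate 2. A fit of the 6 JUND arrays alone called 0. Of the 5 calls, only that of TTGCccct held when each array was left out in turn.

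With 5hmC, limma called 0 JUND oligos and 0 of all tested 8-mers. At an unadjusted p under 0.05, 77 were higher and 10 lower, and all tested 8-mers were not counted at that cut. The median change was 0.321, against -0.00515 over all tested 8-mers. None of the 9 other settings that kept both arrays of each JUND group called any of the oligos. This absence of calls did not hold without 5hmC replicate 1, where the median change was 0.454. Without 5hmC replicate 2 the median change was 0.201. The difference between 5hmC and 5mC was called in 24 oligos, 20 higher and 4 lower with 5hmC, against 0.946% and 2.16% of all tested 8-mers. TTGCatgt, with JUND z-scores of 0.249 and -0.322 on 5mC and 1.79 and 4.63 on 5hmC arrays, and atgTTGCa, with 0.265 and -0.732 and 1.46 and 3.90, were among the 20, named here after their values were seen. The count of 24 moved with each single array left out. The median change was 0.317 over all arrays. It was 0.360 and 0.323 without 5mC replicates 1 and 2, and 0.447 and 0.173 without 5hmC replicates 1 and 2. A fit of the JUND arrays alone called 0 of the oligos and 3 of all tested 8-mers.

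On cytosine arrays 80 of the 711 pairs differed, 75 of them with the oligo lower than its reverse complement, when 18.5% of all pairs differed. In fits of each protein's own arrays, the counts on cytosine were 45 for JUND, 45 for ATF1 and 37 for CREB1. Of all 32225 pairs, the same fits called 2667, 3657 and 4141, in each case a larger share than of the 711. With 5mC the difference changed in 13 pairs, against 2.61% of all pairs, each with the oligo gaining less. With 5hmC limma called 0. At an unadjusted p under 0.05 it called 42 with 5hmC, and all pairs were not counted at that cut. The oligo tatTTGCa read 0.229 and 1.19 with 5mC against 6.61 and 7.88 for tGCAAata, and tTTGCcgg read -0.144 and 0.0323 against 5.58 and 7.51 for ccgGCAAa (adjusted p = 0.0138 and 0.00536). The cytosine count was 48 without cytosine replicate 1 and 7 without cytosine replicate 2, and the 5mC count was 3 to 5 without single arrays, either cytosine array and either 5mC array each lowering it.

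A last comparison sets these oligos beside 254 8-mers with GCAA after C on the unmodified strand, which read TTGCG on the modified strand and hold a CpG. 8-mers that as written held TGAC, GTCA or GCAA were left out of this list. The 711 were not filtered for TGAC or GTCA. On the CREB1 cytosine arrays 25 and 37 of the 254 reached a z-score of 4, with 5mC 9 and 14, and with 5hmC 2 and 1. These were 9.84% and 14.6%, 3.54% and 5.51%, and 0.787% and 0.394%. The 711 oligos with A, G or T before GCAA reached it in 4 and 8, 15 and 6, and 6 and 0 cases. These were 0.563% and 1.13%, 2.11% and 0.844%, and 0.844% and 0%. Of all tested 8-mers, 4.25% and 5.99% reached it on cytosine, 2.53% and 1.96% with 5mC and 1.72% and 1.80% with 5hmC. The share of the 711 was thus smaller than that of all tested 8-mers on each of these arrays. It was also smaller than that of the 254, except on 5hmC replicate 1 (0.844% against 0.787%). The reverse complements of the 711 reached a z-score of 4 in 7 and 12 (0.985% and 1.69%), 274 and 100 (38.5% and 14.1%), and 173 and 108 cases (24.3% and 15.2%). The difference between these lists was not tested.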

How the data were processed

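Binding of CREB1, ATF1 and JUND was read on 18 arrays of 40330 probes with 35 variable bases. Per the file headers, the authors deposited linear intensities, a median spot signal and its local background. The authors also deposited a z-score for each 8-mer on each array, but the sources used here do not give the formula of this score, nor the scanner. The score ranked with the signal of probes whose synthesized strand held the 8-mer (Spearman rho 0.957 to 0.975 over arrays; -0.0808 to 0.509 for the printed strand), taking the deposited probe sequence as the printed strand.

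Groups came from the sample titles. The z-scores of 65121 8-mers (409 on no probe left out, 6 cells null) were fitted with limma 3.58.1 in R 4.3.3, with 1 mean per group over all 18 arrays and moderation along a mean-variance trend; tests were two-sided and Benjamini-Hochberg adjusted at 0.05. Strand pairs (32225) were fitted likewise on the z-score of an 8-mer minus that of its reverse complement, with their mean z-score as the trend. Other steps used Python 3.11.15, numpy 2.4.6, pandas 2.3.3 and scipy 1.17.1.

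Oligos named were the 8 defined by TGA, TTA or TTG, per protein and base the calls with non-overlapping arrays that rose or fell most (up to 5 in each direction), the 3 highest of each group, and up to 3 with the largest strand change in each direction. Members and lists were chosen with earlier results of these data known. Alternatives were a replicate block, no trend, only the arrays of the proteins compared, quantile normalization, at least 10 probes, scores recomputed from log2 signal with and without normexp (offset 50), and leaving out each array; recomputation from linear signal, with and without probes holding GCAA on the synthesized strand, and a crossed block were chosen after seeing the data.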

Additional observations from a re-analysis of the deposited data

Results flagged for a closer look

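The oligo acgTTGCt was singled out because its response to 5hmC differed between CREB1 and ATF1 in a test of the difference itself. The change from cytosine was -7.64 for CREB1 and -1.36 for ATF1, a difference of -6.29 z-score units (limma interaction, adjusted p = 0.0271). This call was lost with only the CREB1 and ATF1 arrays and with quantile normalization. It was also lost on log2 signal with and without normexp and in both recomputations from linear signal. Several single arrays, named above, were needed for it as well. Both 5hmC arrays lay below both cytosine arrays for either protein. With cytosine the z-scores were 7.97 and 10.7 for CREB1 and 2.06 and 2.36 for ATF1, and the part of that difference in level was not tested.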

How the results depend on the processing

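All counts are of oligos called by limma unless pairs are named. Which direction held more calls changed with the setting where calls were few. For CREB1 5hmC, 14 higher and 10 lower became 6 and 7 with only its own arrays, 2 and 9 without cytosine replicate 1, 2 and 5 without cytosine replicate 2 and 1 and 7 without 5hmC replicate 1. For ATF1 5hmC, 1 and 4 became 5 and 1 with normexp, and for ATF1 5hmC against 5mC, 2 and 3 became 10 and 3. For JUND 5mC, 4 and 1 became 6 and 8 on log2 signal, 2 and 3 with normexp and 1 and 4 on linear signal, and for JUND 5hmC against 5mC, 20 and 4 became 1 and 2 without 5mC replicate 2. The replicate number is shared by title only. Deviations of same-numbered arrays within a protein correlated between -0.13 and 0.23 (Spearman). These correlations cannot tell whether the number marks a shared source. With the replicate block, the counts were 42 for CREB1 5mC, 20 for CREB1 5hmC, 1 for CREB1 5hmC against 5mC, 3 for ATF1 5hmC and 3 for JUND 5mC, and 158 pairs for CREB1 5mC. For ATF1 5hmC against 5mC, the block and the crossed block, the latter chosen after seeing the data, each gave 4. Without a trend, ATF1 5hmC against 5mC had 3, JUND 5mC 2, JUND 5hmC against 5mC 12, and the difference of the 5mC effect between CREB1 and ATF1 2. With only the arrays of the proteins compared, the counts were 13 for CREB1 5hmC, 1 for CREB1 5hmC against 5mC, 27 for ATF1 5mC, 12 for ATF1 5hmC, 16 for ATF1 5hmC against 5mC, 0 for JUND 5mC, 0 for JUND 5hmC against 5mC and 0 for the difference of the 5hmC effect. In the same fits, pairs numbered 45 for ATF1 and 45 for JUND on cytosine, 121 for ATF1 5mC, 15 for ATF1 5hmC and 1 for JUND 5mC. Quantile normalization gave 15 for CREB1 5mC, 6 for CREB1 5hmC, 0 for CREB1 5hmC against 5mC, 11 for ATF1 5hmC against 5mC and 0 for the difference of the 5hmC effect. It gave 1 pair for CREB1 and 6 for ATF1 on cytosine, 67 for CREB1 5mC, 47 for CREB1 5hmC, 68 for ATF1 5mC, 23 for ATF1 5hmC and 20 for JUND 5mC. With at least 10 probes, CREB1 5hmC against 5mC had 1, ATF1 5hmC against 5mC 8 and the difference of the 5mC effect 1. Scores from log2 signal gave 22 for ATF1 5mC, 10 for ATF1 5hmC, 18 for ATF1 5hmC against 5mC, 14 for JUND 5mC, 59 for JUND 5hmC against 5mC and 0 for the difference of the 5hmC effect. They gave 57 pairs for CREB1, 62 for ATF1 and 164 for JUND on cytosine, 3 for ATF1 5hmC and 34 for JUND 5mC. With normexp added, the counts were 21 for CREB1 5mC, 0 for CREB1 5hmC against 5mC, 13 for ATF1 5hmC against 5mC and 0 for the difference of the 5hmC effect, with 36 pairs for CREB1 5mC, 12 for ATF1 5mC, 1 for ATF1 5hmC, 39 for ATF1 and 142 for JUND on cytosine. Linear signal, chosen after seeing the data, gave 6 for CREB1 5hmC against 5mC, 22 for ATF1 5mC, 14 for ATF1 5hmC against 5mC, 46 for JUND 5hmC against 5mC and 0 for the difference of the 5hmC effect, with 34 pairs for ATF1 on cytosine and 24 for JUND 5mC. Without probes holding GCAA on the synthesized strand these were 1 for CREB1 5hmC against 5mC, 12 for ATF1 5hmC against 5mC, 47 for JUND 5hmC against 5mC and 0 for the difference of the 5hmC effect. Calls over all tested 8-mers moved as well. With only the arrays of the proteins compared, they went from 2118 to 5124 for ATF1 5mC and from 472 to 2100 for ATF1 5hmC against 5mC. On log2 signal they went from 2023 to 5240 for JUND 5hmC against 5mC. With quantile normalization they went from 5503 to 2037 for CREB1 5mC. Other counts moved apart, as for CREB1 5hmC with only its own arrays, where all calls went from 5140 to 4846. The cause of these shifts was not tested.
Leaving out single arrays gave 20 to 41 for CREB1 5mC, 7 to 19 for CREB1 5hmC, 0 to 4 for CREB1 5hmC against 5mC, 0 to 1 for ATF1 5mC and for ATF1 5hmC, 0 to 2 for ATF1 5hmC against 5mC, 1 to 3 for JUND 5mC, 0 to 31 for JUND 5hmC, 3 to 49 for JUND 5hmC against 5mC, 0 to 3 for the difference of the 5mC effect and 0 to 1 for that of the 5hmC effect. Pairs ranged from 5 to 12 for CREB1 on cytosine, 56 to 218 for CREB1 5mC, 38 to 91 for CREB1 5hmC, 7 to 48 for JUND on cytosine, 3 to 5 for JUND 5mC and 0 to 9 for JUND 5hmC. They were 0 throughout for ATF1 on cytosine, with 5mC and with 5hmC. Of 52 named calls, 13 held in every alternative and without every array, and none of the 52 reversed. Settings not named for a result left its count within 1.5 times. Oligos on few probes (8 had under 10) and the 2 arrays per group limit the precision.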
